A study of Homo sapiens with 27 samples.

Results

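Synaptic transmission depends on a presynaptic apparatus that was read here through 10 genes chosen by name: RIMS1, RIMS2, BSN and PCLO, whose products scaffold the active zone; UNC13B, which primes vesicles; RAB3A, a vesicle GTPase; STX3, the syntaxin of ribbon synapses; CTBP2, which encodes the ribbon protein RIBEYE; and the ribbon synapse complexins CPLX3 and CPLX4. Rows of the gene tables were matched through Ensembl identifiers, and 9 of the 10 genes had a row among 44852 genes. The level of CPLX3 was not analysed here. RNA was sequenced from H1, an established human embryonic stem cell line, carried as monolayers towards photoreceptor progenitors on 3 laminin matrices, called LN523, LN323 and LN521, and harvested at days 2, 22 and 32. Each of the 9 groups held 3 libraries, which gave 27 in all, with 25620624 to 47340990 counts per library and a median of 39862487.

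All groups shared the line. The matrices shared the media of a day, but the days did not, so each comparison of day 22 with day 2 is also one of media. Day 2 cultures were undifferentiated stem cells kept in NutriStem, a stem cell medium, and were taken on the day when neuroectodermal induction medium with the inhibitors CKI-7 and SB431542 was introduced. The later cultures had gone on to photoreceptor differentiation medium holding BDNF, CNTF, retinoic acid and DAPT. Sample titles count days 0, 20 and 30 where the labelled harvests are days 2, 22 and 32. The sources differ on the coatings. The labels give Laminin 323 for LN323, Laminin 521 with Laminin 323 for LN521 and Laminin 523 with Laminin 323 for LN523, whereas the methods describe LN521 alone, and LN323 or LN523 each mixed with LN521. The matrices are therefore called here by the names in the titles. No source tied the libraries of a group to separate cultures, so p-values measure only the spread between these libraries, which may be technical. The cells are 1 line grown without an organised retina.

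At a conventional synapse, calcium entering at the active zone triggers fusion of primed vesicles through the SNARE complex. Photoreceptors and bipolar cells release transmitter continuously, and their terminals tether vesicles to a plate-like ribbon made largely of RIBEYE, with PCLO and BSN at the ribbon and its base. These terminals use STX3 in place of the syntaxins of conventional synapses and CPLX3 and CPLX4 in place of CPLX1 and CPLX2.

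CTBP2 needs its transcript structure to be read. A transcript that starts inside the gene encodes RIBEYE, annotated with 985 residues, and transcripts from the gene's outer start encode a nuclear corepressor of up to 445 residues. Both forms fall in the 1 CTBP2 row (ENSG00000175029), so the count does not separate them. The windows of 250 bases upstream of annotated start sites are shown for RIBEYE, for CPLX4 and for RIMS1, because the first pair hold the motif TAATCC, a core recognised by OTX2 and CRX, and the RIMS1 window does not. Sequences are from RefSeq, build GRCh38.p14, each read 5′ to 3′ on the strand of its gene, with TAATCC in capitals.
CTBP2, RIBEYE start, chr10:125028072-125028321, minus strand: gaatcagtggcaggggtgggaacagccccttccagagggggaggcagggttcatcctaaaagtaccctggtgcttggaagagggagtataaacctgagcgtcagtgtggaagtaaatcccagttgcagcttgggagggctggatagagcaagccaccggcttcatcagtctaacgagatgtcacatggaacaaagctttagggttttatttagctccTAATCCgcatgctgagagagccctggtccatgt
CPLX4, chr18:59318650-59318899, minus strand: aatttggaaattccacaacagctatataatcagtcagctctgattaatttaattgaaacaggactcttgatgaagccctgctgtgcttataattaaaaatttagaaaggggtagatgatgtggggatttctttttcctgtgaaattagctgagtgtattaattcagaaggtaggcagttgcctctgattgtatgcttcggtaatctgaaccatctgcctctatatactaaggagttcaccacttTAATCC
RIMS1, chr6:71886300-71886549, plus strand: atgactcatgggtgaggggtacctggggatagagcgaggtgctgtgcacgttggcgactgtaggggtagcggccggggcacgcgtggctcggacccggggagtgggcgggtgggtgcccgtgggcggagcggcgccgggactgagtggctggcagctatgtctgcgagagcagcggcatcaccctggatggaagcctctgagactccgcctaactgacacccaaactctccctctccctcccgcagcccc

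The motif, searched as TAATCC on both strands, was found in 4 of 17 windows of the members, against 5.62% of 35116 windows of all genes. These 4 were the RIBEYE window, a window at the outer start of CTBP2, and the windows of CPLX4 and CPLX3. The windows came from 9 members, among them CPLX3, whose level was not analysed. No window of RIMS2 was searched. The repressor half-site TTCAGCACC was found in 0 of 17 windows, against 0.288% of all windows, and the E-box CAGCTG in 1, at UNC13B, against 14.0%. A match is a description of letters, and windows of 1 gene are not independent.

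The annotation places RIMS1 (ENSG00000079841) at chr6:71886550-72403150, UNC13B (ENSG00000198722) at chr9:35161992-35405338, BSN (ENSG00000164061) at chr3:49554477-49671549, PCLO (ENSG00000186472) at chr7:82754012-83162930 and STX3 (ENSG00000166900) at chr11:59713456-59805882 in GRCh38. RAB3A (ENSG00000105649) lies at chr19:18196784-18204042, and 9.2% of its exonic bases are shared with MPV17L2 on the other strand. CTBP2 spans chr10:124984317-125161170 and shares 34.2% of its exonic bases with genes on the other strand, mostly ZRANB1. CPLX4 (ENSG00000166569) lies at chr18:59275156-59318649, and RIMS2 has the identifier ENSG00000176406 and shares 1.4% of its exonic bases with a processed pseudogene on its own strand. The libraries were stranded, but the strand setting of the counting was not given in the sources used here, so CTBP2 and RAB3A counts may include reads of those neighbours.

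By the summed marker lists, pluripotency markers fell and retinal progenitor markers rose after day 2, while photoreceptor markers at day 32 overlapped their day 2 range. Pigment epithelium markers summed to 122 to 231 CPM at day 2 and 607 to 2430 afterwards. Markers of epidermal or surface epithelium summed to 537 to 1150 CPM at day 2 and 561 to 1630 afterwards. The 6 pluripotency markers summed to 5190 to 8740 CPM (counts scaled to the size of the library) at day 2 and to 8.66 to 381 afterwards. The 6 retinal progenitor markers summed to 3.56 to 6.91 CPM at day 2 and to 922 to 2200 afterwards. The 10 photoreceptor markers summed to 72.8 to 175 CPM at day 2, 15.6 to 72.4 at day 22 and 20.6 to 219 at day 32, and they did not move as 1 group. OTX2 made up most of the day 2 sum, at group means of 86.3 to 124 CPM, so the day 2 range of this list is mainly that of OTX2. The photoreceptor factor CRX, with group means of 0.177 to 0.224 CPM at day 2, 4.42 to 8.8 at day 22 and 6.77 to 23.1 at day 32, and PRDM1 were called higher at day 22 than at day 2 on every matrix, whereas OTX2 and AIPL1 were called lower on every matrix and GNGT2 on LN323 and LN521. Summed markers of neurons of any kind were at 90.3 to 118 CPM at day 2 and at 39.1 to 123 CPM at day 22 in 8 libraries, while LN521 replicate 1 stood at 573. At day 32 that sum was 277 to 493 on LN523 and 156 to 292 on LN323. LN521 replicate 1 again stood apart at day 32, at 758 against 191 and 188. Horizontal and amacrine cell markers summed to 7.7 to 13.5 CPM at day 2, 61.2 to 227 at day 22 and 78.4 to 159 at day 32. Bipolar cell markers summed to 15.9 to 29.2 CPM at day 2 and 37.2 to 71.8 afterwards, with the bipolar receptor GRM6 at group means of 0.63 CPM or less. Ganglion cell markers summed to 109 to 150 CPM at day 2, 18.6 to 423 CPM at day 22 and 88 to 383 at day 32, with LN521 replicate 1 the highest at both later days. Without LN521 replicate 1 at day 22, 3 members were called from day 2 to day 22 on LN521, as with it, and from day 22 to day 32 the count was 0 with both libraries and without either. Further values with and without these libraries stand beside the comparisons with LN521.

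**Figure D1:**
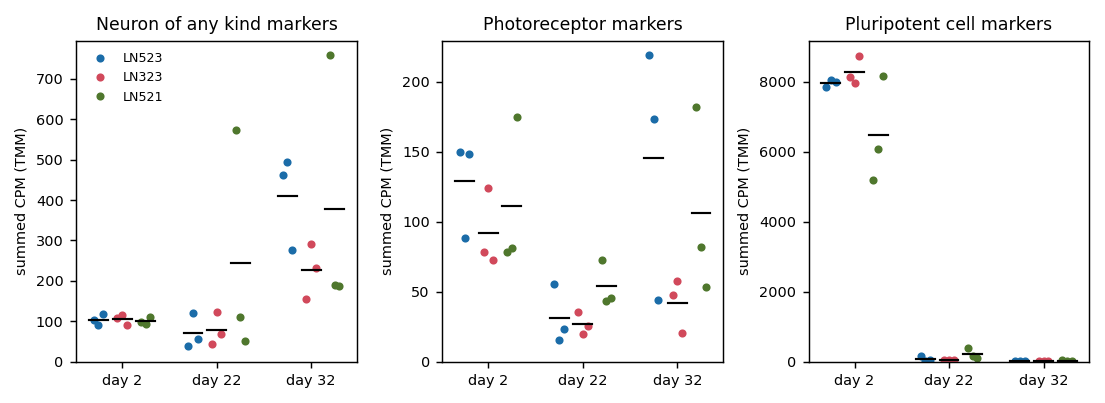
Summed CPM of 3 marker lists in each library, by day (x axis) and matrix (colour); points are libraries and black bars are means of 3. Neuron markers are highest in LN521 replicate 1 at days 22 (573) and 32 (758), and pluripotency markers are at most 381 CPM after day 2.

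Compared per unit of transcript length, in TPM, UNC13B, CTBP2 and STX3 were far more abundant than the scaffolds. UNC13B had the highest median over the 9 libraries of each day, at 120 TPM at day 2, 109 at day 22 and 89.3 at day 32. CTBP2 and STX3 followed, at 84.9 and 70.8 TPM at day 2 and at 32.1 and 37.5 TPM at day 32. RAB3A had medians of 15.0, 9.94 and 15.2 TPM in order of day, at day 2 below the scaffold RIMS2. RIMS2 was at 16.3 TPM at day 2 and 5.73 at day 32, RIMS1 at 2.87 and 5.54, BSN at 2.02 and 6.37, and PCLO at 1.07 and 2.47. CPLX4 was lowest at each day, with medians of 0, 0.774 and 0.711 TPM. Lower levels in a bulk culture cannot be told apart from fewer cells that express the gene.

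**Figure D2:**
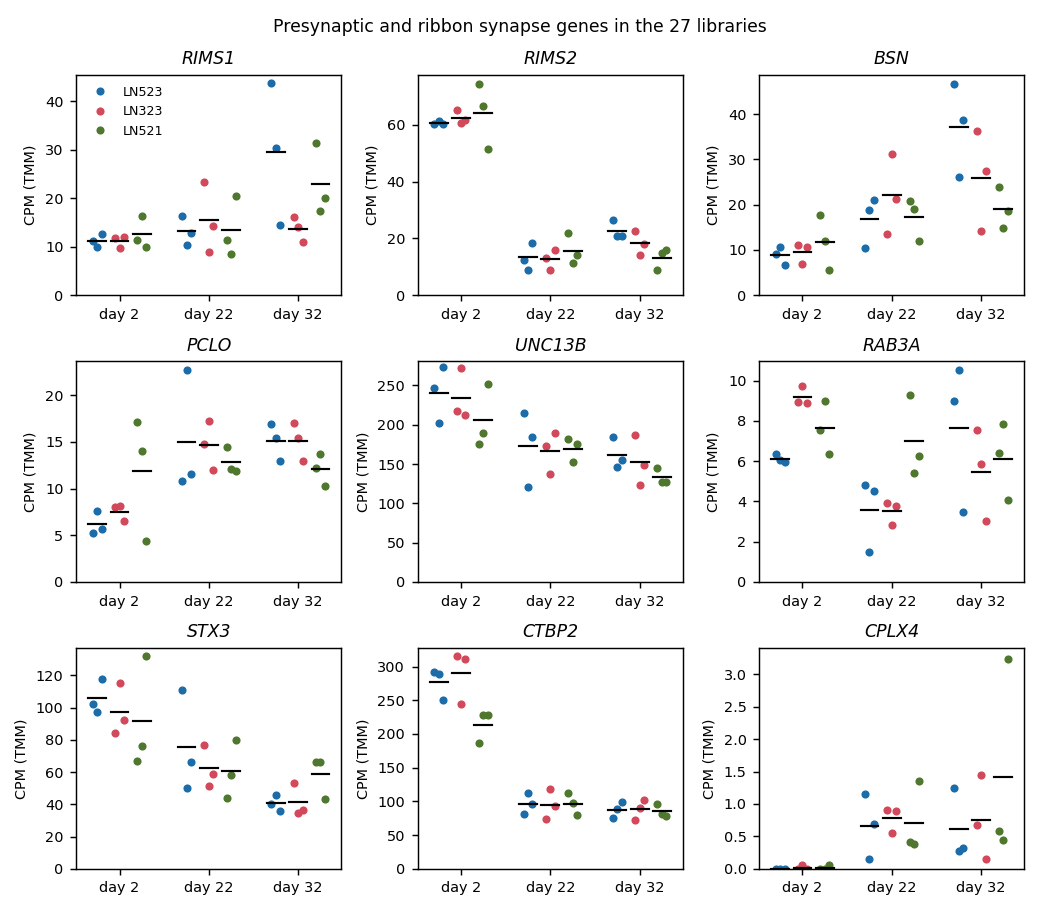
CPM of 9 genes (TMM-scaled, linear axes from 0) in each library, by day and matrix (colour); points are libraries and black bars are means of 3. RIMS2 and CTBP2 sit highest at day 2 on every matrix, and CPLX4 stays at or below 0.0547 CPM at day 2.

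Between day 2 and day 22 the members did not move together: on every matrix RIMS2 and CTBP2 fell and CPLX4 rose, while PCLO rose on LN523 and LN323 and BSN on LN323. BSN on LN523 lay close to the threshold, and 4 of 5 alternatives that kept all libraries ended its call. Called means an adjusted p under 0.05 in edgeR's quasi-likelihood test across all genes with lane as a covariate. On LN523, 3 of 9 members rose (BSN, PCLO and CPLX4), where 11.5% of all 44852 genes rose, and 2 fell, where 10.2% of all genes fell. On LN323, 3 rose (BSN, PCLO and CPLX4; background 11.8%) and 4 fell (RIMS2, CTBP2, UNC13B and RAB3A; background 10.9%). On LN521, CPLX4 alone rose (background 10.8%) and RIMS2 and CTBP2 fell (background 8.09%). These backgrounds include genes with very few counts. Under filterByExpr, a stricter filter on low counts, 25682 genes were kept. Of these 5677 rose and 5030 fell on LN523, 5757 and 5392 on LN323, and 5221 and 4075 on LN521, larger shares than of all genes. The median log2 fold change of the 9 members was -0.49 on LN523, -0.52 on LN323 and -0.14 on LN521, against 0.02, 0.02 and -0.02 over all genes.

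RIMS2, an active zone scaffold that binds RAB3 and calcium channels, was most abundant at the stem cell stage. At day 2 it stood at 60.2, 61.5 and 60.3 CPM on LN523, at 65.1, 60.7 and 61.7 on LN323 and at 74.5, 66.8 and 51.6 on LN521. At day 22 it stood at 12.5, 8.94 and 18.5 CPM on LN523, at 13.0, 8.79 and 16.0 on LN323 and at 21.8, 11.2 and 14.0 on LN521. No day 22 library reached any day 2 library. The log2 fold change was -2.22 ± 0.28 (SE, n = 3 and 3) on LN523, with an edgeR adjusted p of 5.38e-09, -2.33 ± 0.28 on LN323 and -2.06 ± 0.27 on LN521. Its paralog RIMS1 did not pass the test: it stood at 9.68 to 16.4 CPM at day 2 and at 8.53 to 23.4 at day 22 over the 9 libraries of each day, and its log2 fold changes were 0.20, 0.42 and 0.08 in the order LN523, LN323 and LN521.

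CTBP2 fell by a similar pattern. Day 2 libraries held 292, 289 and 251 CPM on LN523, 315, 244 and 311 on LN323 and 186, 228 and 228 on LN521. Day 22 libraries held 80.8, 112 and 96.1 CPM on LN523, 73.3, 118 and 92.7 on LN323 and 112, 97.2 and 79.9 on LN521. The groups did not overlap on any matrix, with log2 fold changes of -1.53 ± 0.20 on LN523 (edgeR adjusted p = 2.28e-08), -1.63 ± 0.20 on LN323 and -1.15 ± 0.20 on LN521. The fall is that of the whole CTBP2 row, and the share of RIBEYE in it was not measured.

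CPLX4, the complexin of ribbon terminals, went from near absence to a low level. Its counts at day 2 were 0, 0 and 0 on LN523, 0, 2 and 0 on LN323 and 0, 0 and 2 on LN521. At day 22 they were 50, 6 and 24 on LN523, 24, 24 and 38 on LN323 and 18, 16 and 49 on LN521. Every day 22 library was above every day 2 library, yet the highest of them reached 1.35 CPM. Against a floor of 3 counts per library at day 2, CPLX4 was at least 6.94-fold higher at day 22 on LN523. The ratio was 42.3 on LN323, with a 95% exact binomial interval of 11.4 to 355, and 39.6 on LN521, with an interval of 10.6 to 332. Each of these ratios rests on 2 counts in 1 day 2 library, so they cannot be set against the bound on LN523. The fitted log2 fold change, which depends on the prior count, had a range of 4.4 to 8.2 on LN323 when 1 library was left out, and of 4.49 to 7.54 on LN521. These intervals cover counting error only, and they are too narrow where both mates of a read pair were counted, since 68.8% of nonzero values in the table are even. The edgeR adjusted p was 0.000198, 0.000794 and 0.000916 in the order LN523, LN323 and LN521.

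BSN and PCLO, the large scaffolds Bassoon and Piccolo, were lower at day 2 than at day 22 on LN523 and LN323. PCLO stood at 5.26, 7.58 and 5.63 CPM at day 2 and 10.8, 22.7 and 11.6 at day 22 on LN523, with a log2 fold change of 1.26 ± 0.32 and an edgeR adjusted p of 0.00206. On LN323 it stood at 8.04, 8.09 and 6.47 CPM and then at 14.8, 17.2 and 12.0, with a log2 fold change of 0.95 ± 0.32 and an adjusted p of 0.0212 that became 0.0661 or 0.0731 without LN323 replicate 1 or 2 at day 2. On LN521 the day 2 libraries were spread over 17.1, 14.0 and 4.42 CPM, the day 22 libraries stood at 14.5, 12.1 and 11.9, and the log2 fold change was 0.20 ± 0.32. The pair of LN521 day 2 libraries with more PCLO had lower summed pluripotency markers, 5190 and 6070 CPM against 8180 in the other, whose part in the result was not tested. BSN on LN523 stood at 9.12, 10.7 and 6.64 CPM at day 2 and at 10.3, 18.7 and 21.1 at day 22. Those groups overlapped, and its log2 fold change of 0.96 ± 0.35 was close to the threshold, with an edgeR adjusted p of 0.0395. That p became 0.0508 with RLE scaling, 0.0615 under the stricter filterByExpr filter, 0.0536 without the lane term and 0.0558 in DESeq2, and 0.0301 in a fit on the LN523 libraries of both days, while the log2 fold change stayed between 0.92 and 0.96. Leaving out LN523 replicate 1 or 3 at day 2, or replicate 2 or 3 at day 22, also ended that call, with adjusted p from 0.0632 to 0.186. On LN323 BSN stood at 11.1, 6.97 and 10.7 CPM and then at 13.6, 31.2 and 21.3, with a log2 fold change of 1.24 ± 0.35 and an adjusted p of 0.00553, or 0.0573 without LN323 replicate 2 at day 22.

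RAB3A passed the test on LN323, and UNC13B lay close to the threshold on both LN323 and LN523. RAB3A stood at 8.93, 9.73 and 8.91 CPM at day 2 and at 3.92, 2.85 and 3.75 at day 22 on LN323, a log2 fold change of -1.39 ± 0.41 with an edgeR adjusted p of 0.00743. Without LN323 replicate 1 or 2 at day 22 that p became 0.063 or 0.0828. On LN523 the same gene stood at 6.35, 6.07 and 5.94 CPM and then at 4.79, 1.47 and 4.52, with a log2 fold change of -0.76 ± 0.40. UNC13B stood at 218, 272 and 212 CPM and then at 173, 137 and 189 on LN323, a log2 fold change of -0.52 ± 0.19 with an adjusted p of 0.0449, which was 0.084 without the lane term and 0.132 with only the groups compared. Leaving out LN323 replicate 2 at day 2, or any 1 replicate at day 22, ended that call, with adjusted p from 0.122 to 0.482. On LN523 UNC13B changed by -0.49 ± 0.19 on the log2 scale with an adjusted p of 0.0635, and that p was 0.0396 with RLE scaling, 0.0309 under filterByExpr and 0.0132 in DESeq2. STX3 did not pass on any matrix, at log2 fold changes of -0.50, -0.66 and -0.59 and adjusted p of 0.192, 0.054 and 0.11 in the order LN523, LN323 and LN521. It passed on LN323 with RLE scaling (0.0487) and on LN521 with only the groups compared (0.0109). Leaving out 1 library brought it past the threshold on LN323 (0.0376 without replicate 1 at day 2), on LN521 (0.0409 without replicate 1 at day 2 and 0.0463 without replicate 3 at day 22) and on LN523 (0.0464 without replicate 1 at day 22).

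**Figure D3:**
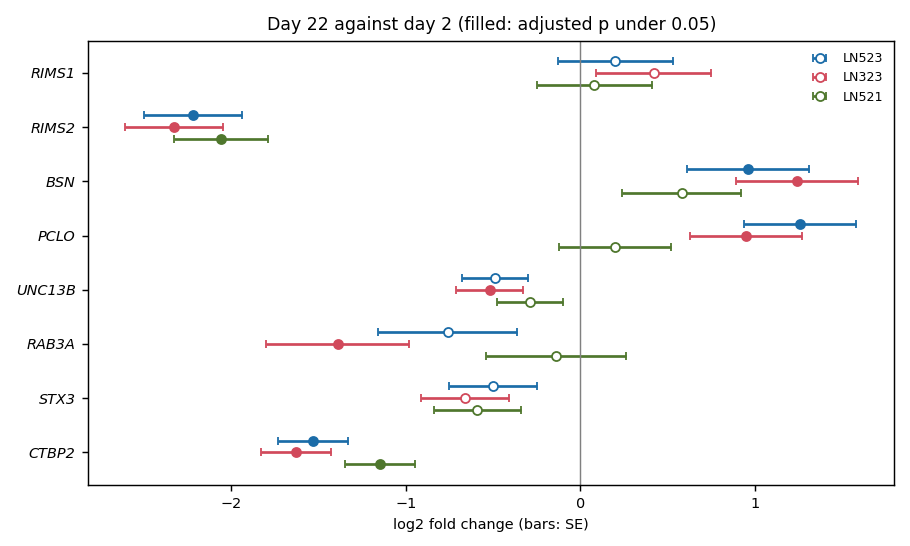
Log2 fold change (x axis) from day 2 to day 22 for 8 genes on 3 matrices (colour); bars are SE and filled points have an adjusted p under 0.05. CPLX4 is left out because its day 2 libraries were at or near 0; RIMS2 and CTBP2 lie left of 0 on each matrix.

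Whether the matrices differed in these changes was tested directly. Of the 9 members, 0 passed in the change from day 2 to day 22 for LN523 against LN323 (0% of all genes by edgeR, with 949 genes at an unadjusted p under 0.05 and 31 called by DESeq2), for LN523 against LN521 (0.00446% of all genes) or for LN323 against LN521 (0.0201%). PCLO differed between LN523 and LN521 by 1.05 ± 0.45 on the log2 scale (unadjusted p = 0.0226 and adjusted p = 1 in edgeR). RAB3A differed by -1.25 ± 0.57 between LN323 and LN521 (unadjusted p = 0.0318 and adjusted p = 0.9 in edgeR). Without LN521 replicate 1 at day 22 these differences were 1.19 ± 0.50 and -1.06 ± 0.61, with unadjusted p of 0.0201 and 0.0858 and an adjusted p of 1 for both in edgeR.

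From day 22 to day 32 no member passed the test on any matrix: 0 of 9 on LN523, where 0.381% of all genes were called, 0 of 9 on LN323, where 0.0424% were, and 0 of 9 on LN521, where 0.268% were. DESeq2 also called 0 of the 9 on each matrix. At an unadjusted p under 0.05 there were 5 members on LN523, 2 on LN323 and 1 on LN521, where the shares of all genes were 4.38%, 2.85% and 6.16%. On LN523, RIMS1 stood at 16.3, 10.3 and 12.9 CPM at day 22 and at 43.8, 30.4 and 14.5 at day 32, a log2 difference of 1.15 ± 0.33 with an edgeR adjusted p of 0.17. Replicates 1 and 2 at day 32 were above each day 22 library and replicate 3 was within their range, and without replicate 3 the adjusted p was 0.0204. BSN stood at 46.7, 26.1 and 38.8 CPM at day 32, above each LN523 day 22 library, with a log2 difference of 1.11 ± 0.35 and an adjusted p of 0.28. STX3 stood at 111, 50.4 and 66.0 CPM at day 22 and at 40.3, 45.8 and 35.9 at day 32, a difference of -0.88 ± 0.26 with an adjusted p of 0.189, or 0.0183 without LN523 replicate 2 at day 22. RIMS2 differed by 0.79 ± 0.27 with an adjusted p of 0.421 and RAB3A by 1.03 ± 0.41 with an adjusted p of 0.762. The members at that unadjusted p on the other matrices had the signs seen on LN523. On LN323 they were RIMS2 at 0.54 ± 0.27 and STX3 at -0.59 ± 0.25 (unadjusted p = 0.048 and 0.0252 in edgeR). On LN521 it was RIMS1 at 0.72 ± 0.33 (unadjusted p = 0.0331 in edgeR). Of the 5 members named on LN523, RIMS1 had the opposite sign on LN323, at -0.13 ± 0.33. RIMS2 and RAB3A had it on LN521, at -0.21 ± 0.27 and -0.19 ± 0.40. The rest of the values of these 5 kept the LN523 sign.

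A fit on only the LN523 libraries of both days called RIMS1, BSN and STX3, with adjusted p of 0.0468, 0.00745 and 0.0499. Neuron markers moved over the same interval on LN523, from sums of 39.1, 120 and 55.8 CPM to 461, 493 and 277, and photoreceptor markers from 55.2, 15.6 and 23.5 to 219, 173 and 44.4. In that group the library with the least RIMS1, replicate 3, also had the lowest sum of both lists. BSN was highest in replicate 1, at 46.7 CPM, where the photoreceptor sum was highest. Its lowest value, 26.1 CPM, was in replicate 2, where the neuron sum was highest, and replicate 3 held 38.8 CPM. OTX2 had means of 21.9 CPM at day 22 and 59.3 CPM at day 32 within the photoreceptor sums on LN523. The part of these markers in the results was not tested.

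**Figure D4:**
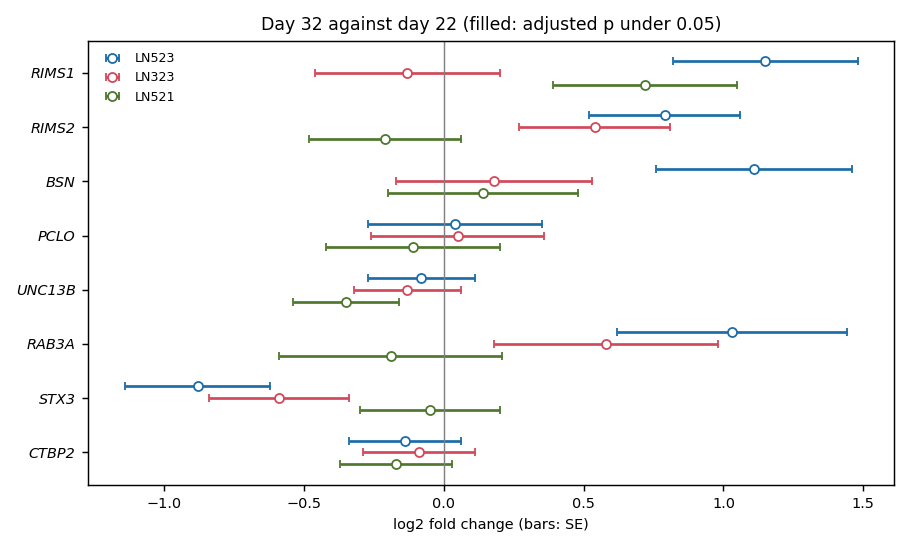
Log2 fold change (x axis) from day 22 to day 32 for 8 genes on 3 matrices (colour); bars are SE, and no point is filled because none had an adjusted p under 0.05. On LN523, RIMS1 and BSN lie above 1 and STX3 at -0.88.

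In the change from day 22 to day 32, 0 members differed between matrices: 0% of all genes were called for LN523 against LN323, 0% for LN523 against LN521 and 0% for LN323 against LN521. At an unadjusted p under 0.05 edgeR had 901, 2142 and 1540 genes in those 3 tests, and DESeq2 called 35, 47 and 37. Of the members 1, 3 and 0 were under that unadjusted p in edgeR. RIMS1 differed by 1.28 ± 0.46 between LN523 and LN323 on the log2 scale (unadjusted p = 0.0083 and adjusted p = 1 in edgeR). RIMS2 differed by 1.00 ± 0.38 between LN523 and LN521 (unadjusted p = 0.0107 and adjusted p = 0.821 in edgeR). Without LN521 replicate 1 at day 22 or at day 32 the RIMS2 difference was 0.75 ± 0.39 or 0.69 ± 0.37, with unadjusted p of 0.0627 and 0.0657 and an adjusted p of 1 for both in edgeR. Between LN523 and LN521, STX3 differed by -0.83 ± 0.36 and RAB3A by 1.23 ± 0.57 (adjusted p = 0.961 and 0.998 in edgeR). Their unadjusted p of 0.0258 and 0.0351 became 0.121 and 0.0752 without that library at day 22. Without it at day 32 they were 0.0393 and 0.0589 in edgeR.

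Direct comparisons of the matrices at 1 day asked whether levels differed by coating, and 0 of 9 members passed in any of the 9. In edgeR, 0, 1 and 1 members had an unadjusted p under 0.05 at day 2, 0, 1 and 1 at day 22 and 2, 3 and 2 at day 32, in the order LN523 against LN323, LN523 against LN521 and LN323 against LN521. The shares of all genes at that unadjusted p were 2.38%, 8.07% and 11.4% at day 2, 1.33%, 4.56% and 5.08% at day 22 and 1.9%, 5.17% and 4.47% at day 32. Counts of 0 or 1 of 9 members lie near these shares. DESeq2 called 0 members at days 2 and 22. At day 2 the shares of all genes called were 0.233% for LN523 against LN323, 0.624% for LN523 against LN521 and 2.5% for LN323 against LN521. The median of all genes was shifted by -0.19 and -0.20 on the log2 scale in the comparisons of LN523 and LN323 with LN521 at day 2. PCLO, at 17.1 and 14.0 CPM in LN521 replicates 1 and 2, gave a log2 difference of -0.91 ± 0.30 for LN523 against LN521 with an edgeR adjusted p of 0.18. That p was 0.0171 without the lane term, 0.0127 without LN521 replicate 3 and 0.0311 without LN523 replicate 3.

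At day 22 the shares of all genes called were 0.013%, 0.572% and 0.616% in the same order. RAB3A was the member with the lowest p, at 9.3, 5.4 and 6.26 CPM on LN521 against 4.79, 1.47 and 4.52 on LN523 and 3.92, 2.85 and 3.75 on LN323. Those LN521 libraries were above all libraries of the other matrices. The log2 difference was -1.06 ± 0.37 for LN523 against LN521 with an adjusted p of 0.356 and -0.97 ± 0.37 for LN323 against LN521 with an adjusted p of 0.453. LN521 replicate 1, which had the most RAB3A, was the library with the high neuron marker sum. Without it the log2 differences were -1.02 and -0.94, with adjusted p of 0.364 and 0.351.

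At day 32 the shares were 0% for LN523 against LN323 (edgeR, 747 genes at an unadjusted p under 0.05 and 823 called by DESeq2), 0.0609% for LN523 against LN521 and 0.117% for LN323 against LN521. RIMS1 stood at 43.8, 30.4 and 14.5 CPM on LN523, 16.1, 14.0 and 10.9 on LN323 and 31.5, 17.3 and 20.1 on LN521. LN523 exceeded LN323 by 1.00 ± 0.27 on the log2 scale with an edgeR adjusted p of 0.99, while DESeq2 gave 0.0452 and a fit on those 6 libraries alone 1.72e-07. LN323 differed from LN521 by -0.74 ± 0.27, with no overlap and an adjusted p of 0.679, or 0.00857 without LN521 replicate 1. BSN stood at 46.7, 26.1 and 38.8 CPM on LN523, 36.2, 14.1 and 27.5 on LN323 and 23.8, 14.9 and 18.6 on LN521. Its LN523 and LN323 libraries overlapped, but LN523 was higher in each same-numbered pair, by 0.56 ± 0.23 (unadjusted p = 0.0255 in edgeR). A fit on only those 2 matrices at day 32 called it, where 1035 of 36703 genes were called. LN523 exceeded LN521 by 0.92 ± 0.23 with no overlap and an adjusted p of 0.198, against 0.0112 in DESeq2 and 0.00017 without LN521 replicate 1. Without that library the number of all genes called rose from 24 to 1907 of 38504 for LN523 against LN521. For LN323 against LN521 it rose from 46 to 2143. STX3 and CPLX4 were then also called lower on LN523 than on LN521, at log2 differences of -0.51 and -2.22 and adjusted p of 0.028 and 0.0289. Without LN521 replicate 3 the CPLX4 difference turned to 0.75, with an adjusted p of 0.976. The CPLX4 counts behind this were 58, 10 and 14 on LN523 and 24, 15 and 116 on LN521. CPLX4 was highest in LN521 replicate 3, at 3.24 CPM, the largest value of the gene in the 27 libraries.

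**Figure D5:**
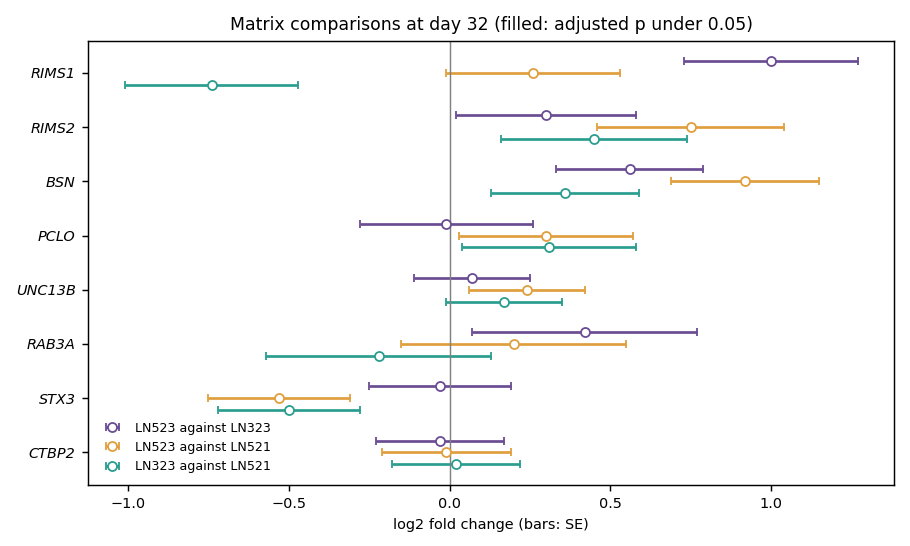
Log2 fold change (x axis) between matrices at day 32 for 8 genes; colours are the 3 pairs, bars are SE, and no point is filled because none had an adjusted p under 0.05. RIMS1 lies at 1.00 for LN523 against LN323 and BSN at 0.92 for LN523 against LN521.

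The other genes of the presynaptic apparatus were counted from 4 lists. Of 18 further active zone scaffold genes, 6 rose and 5 fell on LN523 from day 2 to day 22, with a median log2 fold change of 0.26 against 0.02 over all genes. Of all genes 11.5% rose and 10.2% fell on LN523, 11.8% and 10.9% on LN323 and 10.8% and 8.09% on LN521. Among genes kept by filterByExpr these shares were larger. UNC13A, the priming paralog of UNC13B, fell by 7.32 ± 0.62 (SE) on the log2 scale, from a mean of 96.8 ± 30.5 CPM (SD, n = 3) to 0.627 ± 0.201. RIMS4, a short RIM paralog, fell from 168 ± 14.1 to 4.45 ± 1.46 CPM. RIMBP2, which links RIM proteins to calcium channels, rose from 0.532 ± 0.363 to 27.9 ± 17.6 CPM. On LN323 7 of the 18 rose and 5 fell, and on LN521 6 rose and 4 fell, or 7 and 4 without LN521 replicate 1 at day 22.

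Of 23 SNARE fusion genes, 5 rose and 7 fell on LN523 over the same days, where 11.5% and 10.2% of all genes did, with a median of -0.23. SNAP25, a core SNARE of neurons, rose from 0.111 ± 0.105 to 2.08 ± 1.24 CPM. SYT4 and SYT3, both synaptotagmins, fell from 113 ± 51.4 to 3.78 ± 3.98 and from 17.3 ± 0.93 to 2.12 ± 0.749 CPM. On LN323 5 rose and 8 fell, and on LN521 5 rose and 5 fell, also without LN521 replicate 1 at day 22. Of 22 synaptic vesicle proteins and transporters, 4 rose and 8 fell on LN523, against the same 11.5% and 10.2% of all genes, with a median of -0.50. SYNPR, the vesicle protein synaptoporin, rose from 1.11 ± 0.775 to 27.5 ± 9.08 CPM, and SYP, synaptophysin, fell from 25.0 ± 11.3 to 1.48 ± 1.27. RAB27B, a vesicle GTPase, rose from 0.295 ± 0.152 to 4.21 ± 1.89 CPM. On LN323 4 rose and 9 fell, and on LN521 3 rose and 7 fell, or 3 and 6 without that library.

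Of 15 genes of the photoreceptor terminal and its calcium channel, 2 rose and 2 fell on LN523, a share near the 11.5% and 10.2% of all genes, with a median of -0.10. ELFN1, an adhesion protein of rod terminals, rose from 12.6 ± 2.04 to 119 ± 30.1 CPM. CACNA1D, an L-type channel subunit, rose from 1.79 ± 0.456 to 11.8 ± 4.48 CPM, and ADGRV1 fell from 176 ± 52.4 to 86.1 ± 23.1. On LN323 3 rose and 2 fell, and on LN521 4 rose and 2 fell, or 3 and 2 without LN521 replicate 1 at day 22.

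From day 22 to day 32 on LN523, 2 scaffold genes, 3 SNARE genes, 1 vesicle gene and 0 terminal genes rose, and 0 fell in any list, where 0.343% of all genes rose. CPLX2, the complexin of conventional synapses, rose from 0.566 ± 0.623 to 24.1 ± 11.6 CPM, and SYT4 from 3.78 ± 3.98 to 51.4 ± 23.2. SYP rose from 1.48 ± 1.27 to 21.0 ± 9.35 CPM, UNC13A from 0.627 ± 0.201 to 4.8 ± 1.58, RIMS3 from 43.1 ± 4.44 to 96.2 ± 30.6 and SYT5 from 0.672 ± 0.232 to 4.52 ± 1.97. Under filterByExpr edgeR called 0 of all genes in this comparison (1510 at an unadjusted p under 0.05), with adjusted p from 0.0662 for CPLX2 to 0.294 for SYT5, whereas DESeq2 called each of these 6 genes. On LN323 0 genes of the 4 lists passed, and on LN521 SYT11 and SLC1A7 rose. Without LN521 replicate 1 at day 32 the adjusted p of SYT11 and SLC1A7 was 0.421 and 0.0933, and 0 genes of the 4 lists passed. Without LN521 replicate 1 at day 22 SLC1A7 stayed past the threshold at 0.0454, SYT11 was at 0.12, and CPLX2, SYT4, SYT5, SYP and UNC13A were called higher. SLC1A7 and the last 5 lie outside the rule for naming in this comparison and were chosen after their values were seen.

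Between matrices, 0 genes of the 4 lists passed at day 32. At day 22, PPFIA4, a liprin of the active zone, was lower on LN523 (13.7 ± 7.35 CPM) and LN323 (12.3 ± 5.03) than on LN521 (45.4 ± 23.6), and it was also called, as lower than on LN521, at day 2, though not there in DESeq2, under filterByExpr or with all 27 libraries. For LN523 against LN521 at day 22 its edgeR adjusted p was 9.72e-06, 0.000123 with RLE scaling and 7e-20 without LN521 replicate 1. The call ended under filterByExpr (0.956), without the lane term (0.525), in DESeq2 (0.37), with only the groups compared (1) and with all 27 libraries (0.116), while the log2 difference stayed between -1.91 and -1.72. For LN323 against LN521 the PPFIA4 call ended under filterByExpr, without the lane term, in DESeq2 and with all 27 libraries, with adjusted p from 0.0565 to 0.933. Under filterByExpr no gene of any list was called between matrices. Other list genes called at day 2 went both ways. VAT1L was higher than on LN521 on LN523 and on LN323, by 0.83 on the log2 scale in each. On LN323 UNC13A was higher by 0.63, and SYN3 (-1.56) and ADGRV1 (-0.92) were lower. Each of these calls also ended in DESeq2 and with all 27 libraries.

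SLC1A2, a glutamate transporter, stood at 2.73 ± 2.34 CPM on LN523 and 12.7 ± 16.5 on LN521 at day 22, and CPLX2 at 0.566 ± 0.623 and 7.52 ± 10.3. Without LN521 replicate 1, the edgeR adjusted p of LN523 against LN521 went from 0.00524 to 1 for SLC1A2 and from 0.00264 to 1 for CPLX2, and their log2 differences went from -2.04 to -0.67 and from -3.35 to -0.92. For LN323 against LN521 the SLC1A2 difference went from -2.84 to -1.56 and its adjusted p from 1.84e-05 to 0.0588. EGFLAM, which encodes pikachurin of the photoreceptor synapse, differed by -3.26 between LN523 and LN521 with an adjusted p of 0.0488, and by -2.49 with 0.81 without that library. CACNA2D4, a calcium channel subunit of photoreceptors, stood at 1.68 ± 0.787 CPM on LN523 and 5.26 ± 1.87 on LN521. Its log2 difference was -1.71 with an adjusted p of 0.0361, and -1.63 with 0.0533 without that library. For LN323 against LN521 CACNA2D4 differed by -1.80 with an adjusted p of 0.0157, and by -1.73 with 0.0209 without it. The alternatives for genes of the lists were chosen after seeing the data.

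Over the 27 libraries the members fell into patterns that were described by the Pearson correlation of log2(CPM + 1), which mixes day, matrix, lane and depth. Members were compared with 13884 genes, and CPLX4 is left out because its mean reached 1 CPM in 1 group only. CTBP2 was most like DAZAP1, GART and SNRPF (r = 0.988 for each) and RIMS2 most like PSIP1, PODXL and JADE1 (r = 0.953 for each). BSN was most like MAP1B (r = 0.885), UNC80 (r = 0.874) and UBXN11 (r = 0.843), and RAB3A most like SULT4A1 (r = 0.856). UNC13B was most like FLII (r = 0.908), STX3 most like ABHD18 (r = 0.896), PCLO most like ZBTB37 (r = 0.876) and RIMS1 most like FAM219A (r = 0.779). Among the members, RIMS2 and CTBP2 had r = 0.855, BSN and PCLO r = 0.739, and BSN and STX3 r = -0.844.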

How the data were processed

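Total RNA libraries were made with a stranded kit and sequenced as read pairs. Per the labels and methods, the authors trimmed with cutadapt, aligned to hg38 with STAR 2.5.2b, counted genes with featureCounts 1.5.1, and left out rRNA and mitochondrial genes. The deposited count table holds whole-number gene counts, and the deposited TPM table holds the same counts scaled by transcript length and library size. All columns were matched to samples by title. Of nonzero counts 68.8% were even, with 78477 values of 2 against 12170 of 1, so counting error may be larger than the counts imply.

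Counts were tested with edgeR 4.0.16 (TMM scaling, quasi-likelihood test, Benjamini-Hochberg adjustment, limma 3.58.1) in R 4.3.3. Time and interaction tests used all 27 libraries, and matrix tests the 9 libraries of a day, with the sequencing lane as a covariate, as in the study's model. Genes summing to more than 1 count were kept, which left 38650, 38609 and 39377 genes at days 2, 22 and 32. The study itself tested with DESeq2; here DESeq2 1.42.0 was an alternative. Other alternatives were RLE scaling, filterByExpr, no lane term, only the groups compared, all 27 libraries, and leaving out each library. CPM values are TMM-scaled. Intervals for counts are exact binomial at 95%, and the floor for a group at 0 is 3 counts per library.

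The replicate number marks the lane in the labels, which is where the block comes from. Same-numbered LN523 and LN323 libraries deviated together at day 22 (r = 0.503, 0.772 and 0.402) and day 32 (r = 0.68, 0.652 and 0.596), but not at day 2 (mean r = -0.286). With LN521 the mean r was 0.161 for LN523 and 0.113 for LN323 at day 22, and 0.148 and -0.00306 at day 32. For replicate 1 of LN521 r was -0.166 and -0.234 at day 22 and -0.213 and -0.282 at day 32, in that order. It was positive for replicates 2 and 3. Counts were also simulated with 100 genes changed 2-fold and 100 changed 4-fold. The fit for LN523 day 22 against day 2 recovered 24% of the 2-fold and 87% of the 4-fold genes. It also called 44 unchanged genes, among 43054 genes in all. The data had 9751 genes called in that comparison, far more than were changed in the simulation. The adjusted p threshold is stricter with few changed genes, so these shares need not hold for that comparison. The fit for LN523 against LN323 at day 32 recovered 29% and 87%, and called 24 unchanged genes, among 36847 genes. In both fits unchanged genes were a larger share of the calls than the adjusted p threshold allows for. Calls close to the threshold may therefore include more false ones than the adjusted p implies.

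The members and lists were chosen with earlier results of these data known. From each list at most 3 genes per comparison were named, the called genes of largest fold change whose group mean reached 1 CPM; for time on LN323 and LN521 mostly counts are given. For each member the 3 most alike genes were sought among genes that had a symbol and a group mean of 5 CPM or more, and for some members only the first is named. Python 3.11.15 with pandas 2.3.3 and scipy 1.17.1 was used for summaries.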

Additional observations from a re-analysis of the deposited data

How the results depend on the processing

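In 18 of 21 comparisons the test called 0 members, and 94 of their 99 alternatives that left out no library also called 0. In the other 3, from day 2 to day 22, the same members were called in 7 of 15. On LN523 the count stayed at 5 with RLE scaling, filterByExpr and DESeq2, but UNC13B (lower) took the place of BSN. On LN323 RLE scaling added STX3, and the fit on only the groups compared lost UNC13B. With only the groups compared, it was 3 for LN523 day 32 against day 22 and 2 (BSN and RIMS1) for LN523 against LN323 at day 32, in place of 0. It was 5 for LN521 day 22 against day 2 in place of 3. With DESeq2 it was 1 (RIMS1) for LN523 against LN323 and 1 (BSN) for LN523 against LN521 at day 32, in place of 0. Without the replicate block (the lane term) it was 1 (PCLO) for LN523 against LN521 at day 2 in place of 0. It was also 4 in place of 5 for LN523 day 22 against day 2, without BSN, and 6 in place of 7 for LN323, without UNC13B. The block changed no other member's call. Leaving out 1 library at a time gave 4 to 6 members for LN523 day 22 against day 2, 4 to 7 for LN323 and 3 to 4 for LN521. It gave 0 to 1 for LN523 day 32 against day 22, 0 to 1 for LN523 against LN521 at day 2, 0 to 3 for LN523 against LN521 at day 32 and 0 to 1 for LN323 against LN521 at day 32. The high ends at day 32 came without LN521 replicate 1, where 1907 and 2143 of 38504 genes were called. The range of 4 to 7 on LN323 has its low end without LN323 replicate 2 at day 22. RIMS2, CTBP2 and CPLX4 stayed called from day 2 to day 22 on LN523, LN323 and LN521 under the 5 alternatives that left out no library. The CPLX4 difference between LN523 and LN521 at day 32 ranged from -2.34 without LN523 replicate 1 to 0.75 without LN521 replicate 3. The cause was not tested.

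Over all genes the counts moved far more. Under filterByExpr the 171, 19 and 120 genes called from day 22 to day 32 on LN523, LN323 and LN521 became 0, 1 and 5, and the 90, 241, 967, 5, 221, 238, 24 and 46 genes called between matrices became 0 in each case. Without the lane term the counts of LN523 and LN323 against LN521 went from 241 and 967 to 522 and 1476 at day 2, from 221 and 238 to 1 and 0 at day 22, and from 24 and 46 to 0 and 15 at day 32. DESeq2 called 547, 486 and 626 genes at day 22 and 823, 823 and 794 at day 32, and 706 and 639 in place of 90 and 241 at day 2. It called 349 and 55 in place of 120 and 19 from day 22 to day 32 on LN521 and LN323. With only the groups compared, 1035 genes in place of 0 were called for LN523 against LN323 at day 32, 496, 350 and 384 from day 22 to day 32, and 307 and 453 in place of 2 and 9 in the changes against LN521 from day 2 to day 22. With all 27 libraries, the day 2 counts 90, 241 and 967 became 0, 9 and 44. Depth limits CPLX4, with at most 116 counts in a library.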
